A study of Mus musculus with 3 samples.

Results

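The 9 genes described here mark subtypes or stages of maturation of cortical interneurons: the transcription factor genes Npas1, Npas3, Mef2c and Cux2, the calcium-binding protein genes Calb1 (calbindin), Calb2 (calretinin) and Pvalb (parvalbumin), the neuronal nitric oxide synthase gene Nos1, and Reln, which encodes the secreted protein reelin. Their probes were taken from a mouse gene expression array by the RefSeq transcript that the array's design gives each probe. This found 13 probes for the 9 genes, of 55681 mouse probes and 20145 genes named in the same way. Of the genes, 6 had 1 probe, so their values rest on 1 spot per array.

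Cortical interneurons are the GABA-producing neurons of the cerebral cortex, and most are born outside it, in the ganglionic eminences of the ventral forebrain. Cells from the medial ganglionic eminence (MGE) turn on the LIM homeodomain factor Lhx6 as they leave the cell cycle, and later become parvalbumin or somatostatin neurons, with some that make neuronal nitric oxide synthase, while calretinin neurons come largely from the caudal ganglionic eminence (CGE). The genes that define adult subtypes come on at different times: some transcription factors are made in newborn cells, while parvalbumin appears in the cortex only after birth.

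The arrays compared 3 sorted populations, with 1 array each. ES-GFP+ and ES-GFP- cells (named ES-Lhx6-GFP+ and ES-Lhx6-GFP- in the figures) were live cells sorted with and without GFP from aggregates of mouse J14 ES cells (129S4/SvJae, labeled male) that carried an Lhx6-GFP BAC transgene and a viral 692-mCherry enhancer reporter. They had been grown in 100 ng/ml Dkk-1, an inhibitor of Wnt signaling, and from D3 in 6 nM SAG, an activator of hedgehog signaling, and were collected on D12. MGE-GFP+ cells were GFP+ cells from the MGE of E12.5 embryos of the CD1 strain (labeled female) with the Lhx6-GFP BAC, and had no culture. In all 3 populations GFP reports the BAC, so the sort selects cells in which that transgene is or is not active. Both ES populations share the line, the virus and the treatment, and the study's methods describe virus-carrying lines expanded from single colonies, so they may stand for 1 clone. Culture, strain and labeled sex differed together between the MGE array and both ES arrays and cannot be told apart, and the labels do not say how many embryos were pooled.

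Intensities are background-subtracted spot brightness on a linear scale, given with the error that the scanner software attached to the spot. They were not scaled between arrays. For differences, log2 intensity was taken relative to the 75th percentile of the mouse probes of the same array, so that a log2 difference of 1 is 2-fold. With 1 array per population there was no replicate check, and no test was made. The only spread that could be measured was that of repeat spots of the same probe within an array (SD from 0.139 to 0.144 on the log2 scale), and 2 SD of a difference came to 0.40 at most, or 1.32-fold. Differences from culture to culture, embryo to embryo or sort to sort are not in it. The arrays also carry 106 control probes (10 for E1A and 96 for ERCC) that match no mouse transcript. Their 95th percentile, called the control range here, was an intensity of 377 for ES-GFP+, 208 for ES-GFP- and 152 for MGE-GFP+ cells. Their median was 69.9, 11.5 and 7.73 in that order, and 86, 34 and 34 of the 106 were called well above background. Dim signals were thus higher on the ES-GFP+ array also for probes that match no mouse transcript. The share of mouse probes that the software called well above background was 90.6%, 80.3% and 77.1% on those arrays, in that order. The median log2 difference of all genes was 0.27 for ES-GFP+ minus ES-GFP-, -0.06 for MGE-GFP+ minus ES-GFP- and -0.36 for MGE-GFP+ minus ES-GFP+, and these values moved to -0.18, 0.25 and 0.40 when the arrays were scaled to the 50th percentile instead. The RNA came from mixed sorted cells, so fewer cells that make a transcript and less of it per cell cannot be told apart.

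The sort itself was visible in the gene it was built on. Of the 3 Lhx6 probes, A_55_P2094149 gave an intensity of 5818 in ES-GFP+, 399 in ES-GFP- and 10244 in MGE-GFP+ cells, and A_55_P2094158 gave 16913, 1373 and 25391. The third, A_55_P2005903, was bright and nearly level, at 111947, 122188 and 97733, so it did not separate the populations. The log2 differences between the ES populations were 4.04, 3.80 and 0.05.

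Within the ES cultures, 5 of the 9 genes (Npas1, Mef2c, Cux2, Calb1 and Nos1) were at least 2-fold higher in GFP+ than in GFP- cells, and 0 of 9 were at least 2-fold lower. By the same rule 24.0% of the 18655 genes with a value were higher and 6.40% lower. At 4-fold the higher genes were 3 of 9 (Npas1, Mef2c and Calb1), against 8.27% of all genes higher and 1.75% lower. The median log2 difference of the 9 genes was 1.29, against 0.27 for all genes.

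Against the same ES-GFP- array, the embryonic cells were at least 2-fold higher for 3 of 9 genes (Mef2c, Cux2 and Calb1) and at least 2-fold lower for 3 of 9 (Calb2, Pvalb and Nos1), where 9.90% of 17025 genes were higher and 17.2% lower. At 4-fold these were 2 higher (Mef2c and Calb1) and 1 lower (Calb2), against 1.69% and 6.80% of all genes. The median of the 9 log2 differences was 0.24. Between the GFP+ populations, 0 of 9 genes were at least 2-fold higher in MGE-GFP+ than in ES-GFP+ cells and 3 of 9 (Npas1, Calb2 and Nos1) were lower, the same 3 also by 4-fold. Of 18580 genes, 5.48% were higher and 32.2% lower in that comparison at 2-fold, and 0.533% and 13.5% at 4-fold. The median of the 9 was -0.17, and the 3 comparisons share arrays, so they are not independent of each other.

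How far the genes stood above background sets how firmly these differences can be read. Npas1, Npas3 and Reln had a probe above the control range on all 3 arrays. Mef2c was above it on both GFP+ arrays, and Cux2 on the MGE-GFP+ array. Calb1, Calb2, Nos1 and Pvalb were not above it on any array, so that their signals, though several were called well above background, lay where probes for sequences foreign to the mouse also lay.

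**Figure D1:**
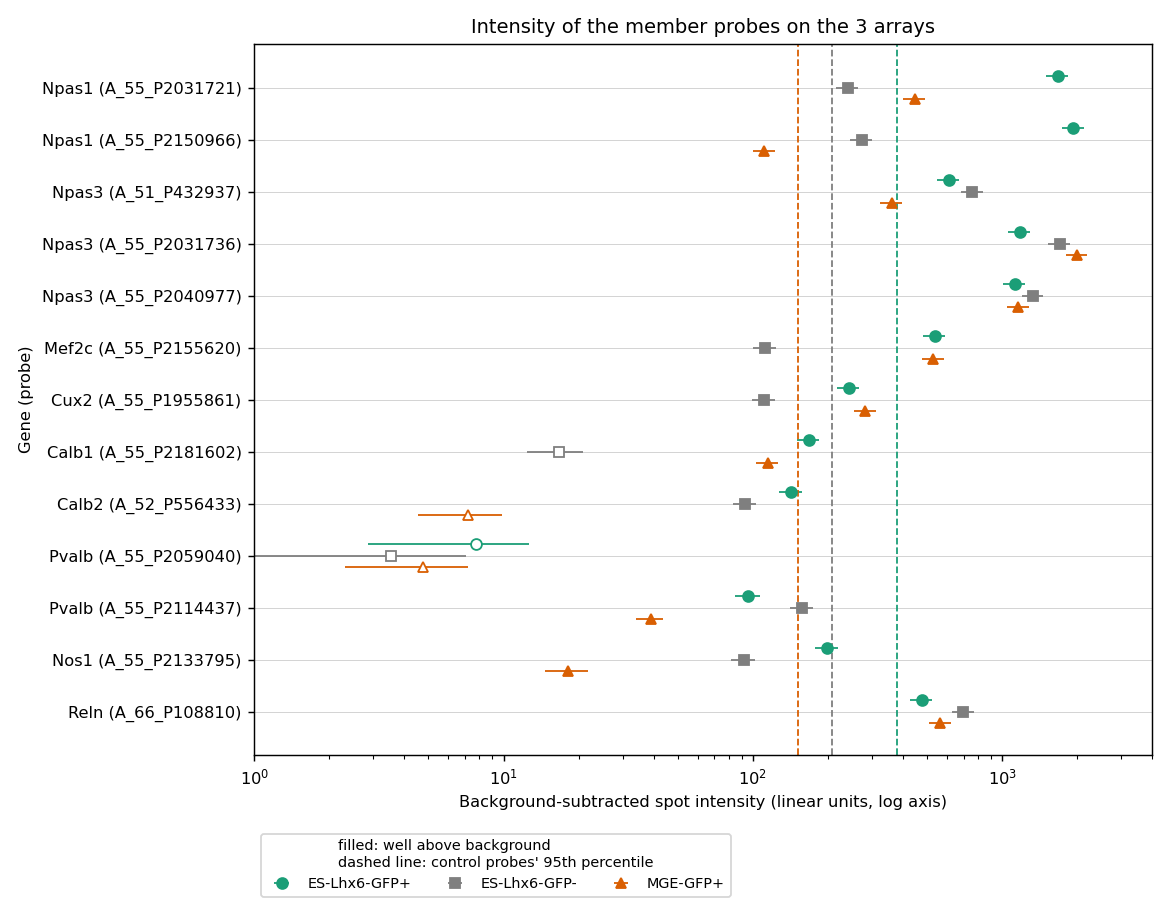
Background-subtracted intensity (log axis) of the 13 probes of the 9 genes on the 3 arrays, with 1 point per array and bars for the error given by the scanner software. Filled points were well above background, and the dashed line of each color is the 95th percentile of the 106 control probes on that array (377, 208 and 152). Npas1 in ES-GFP+ cells (1665 and 1925) stands apart from its other points, and every Calb1, Calb2, Nos1 and Pvalb point lies left of its own array's line.

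Npas1 showed the widest measured separation of the ES populations among the 9 genes, after Calb1, whose value is a bound. It encodes a bHLH-PAS transcription factor made in the ganglionic eminences. Probe A_55_P2031721 gave 1665 ± 167 in ES-GFP+, 240 ± 24.4 in ES-GFP- and 446 ± 44.7 in MGE-GFP+ cells, and probe A_55_P2150966 gave 1925 ± 193, 273 ± 27.6 and 111 ± 11.5. ES-GFP+ cells were high on both probes, by 7.84-fold and 7.97-fold over ES-GFP- cells after scaling, so the probes gave nearly the same difference. The mean log2 difference was 2.98, larger than that of 97.9% of genes. Between 2.54 and 3.05 was found under every setting tried.

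The embryonic cells placed the Npas1 probes differently. On the first probe MGE-GFP+ cells lay between the ES populations, 2.72-fold above ES-GFP- cells, and on the other they were lowest, 1.68-fold below them and under the control range. The mean over both (0.35) was within 2 SD of repeat spots and hides this disagreement. Taking the brighter probe alone gave 1.44. Both probes put MGE-GFP+ below ES-GFP+ cells, by log2 differences of -1.53 and -3.74.

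Npas1 had 1 promoter window in the RefSeq table (GRCm38.p6), from 250 bases before to 50 after the annotated start. The 250 bases before it, chr7:16476781-16477030 on the minus strand, are shown because this gene and Mef2c were the members above the control range that separated the ES populations most. Capitals in this and the other promoters mark 2 motifs searched on both strands: TAATTA, the core bound by homeodomain factors such as Dlx and Lhx6, found in 5.29% of 32851 mouse promoter windows of this length, and ACGTG, the core bound by dimers of PAS factors with their Arnt partners, found in 19.6%. ACGTG overlaps the E-box CANNTG where C stands before it.
Npas1: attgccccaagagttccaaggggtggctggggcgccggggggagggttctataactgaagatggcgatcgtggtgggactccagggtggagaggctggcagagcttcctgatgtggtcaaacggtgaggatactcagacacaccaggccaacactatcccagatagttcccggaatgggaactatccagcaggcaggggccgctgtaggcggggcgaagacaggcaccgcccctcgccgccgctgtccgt
The window held 64.3% G and C, against a median of 52.7% over all windows, and 20 CpG pairs against 7. Neither motif was in it, and neither were the Nkx2 core AAGTG, the E-box, the Sox core ACAAT or TATAAA, which 46.4%, 72.3%, 31.0% and 13.6% of windows hold.

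Npas3, the closest relative of Npas1 among the 9 genes, was present on all arrays and differed little. Its 3 probes were all above the control range on every array. Probe A_55_P2031736 gave 1173 ± 117 in ES-GFP+, 1696 ± 170 in ES-GFP- and 1994 ± 199 in MGE-GFP+ cells. Probe A_55_P2040977 gave 1123 ± 112, 1328 ± 133 and 1159 ± 116, and A_51_P432937 gave 609 ± 61.1, 759 ± 76.0 and 360 ± 36.1. ES-GFP+ cells were below ES-GFP- cells on all 3 probes, by a mean log2 difference of -0.19, and MGE-GFP+ cells were highest on 2 probes and lowest on the other. The mean differences for MGE-GFP+ cells were 0.20 against ES-GFP- and 0.39 against ES-GFP+ cells, and all 3 means were within 2 SD of repeat spots. Scaling to the 50th percentile raised the last to 1.14, and the brighter probe alone brought it past 2-fold too.

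The Npas3 promoter, chr12:53248182-53248431 on the plus strand (GRCm38.p6), is shown beside that of Npas1 since these related genes were measured with similar brightness and differed in how they separated the populations.
Npas3: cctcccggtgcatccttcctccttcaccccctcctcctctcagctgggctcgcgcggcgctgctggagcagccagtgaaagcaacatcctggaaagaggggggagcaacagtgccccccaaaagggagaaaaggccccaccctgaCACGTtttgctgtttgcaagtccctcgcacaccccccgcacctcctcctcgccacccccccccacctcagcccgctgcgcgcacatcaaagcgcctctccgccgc
It held 66.3% G and C, and 1 match to ACGTG at position -105 from the start, written on the other strand as CACGT in capitals.

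Between the ES populations, the related PAS genes showed smaller differences than Npas1 where they were measured well. Npas4, an activity-induced factor, was at 533 in ES-GFP+, 529 in ES-GFP- and 311 in MGE-GFP+ cells, with a log2 difference of 0.19 between the ES populations. Npas2, a clock factor, was at 133, 33.8 and 10.4, was not well above background in MGE-GFP+ cells and was under the control range on all arrays, with a log2 difference of 2.15. Of 7 genes for PAS partners and other class members, 6 had a value and 0 were at least 2-fold different in either direction between the ES populations, with a median of -0.02. Arnt2, the partner found mainly in neurons, was at 10752, 6585 and 8718 (log2 difference 0.88), Arnt at -0.20, the clock factor Arntl at -0.03 and the hypoxia factor Hif1a at 0.44. In MGE-GFP+ cells 1 of the 6 (Hif1a) was at least 2-fold higher and 1 (Epas1) lower than in ES-GFP- cells, where 9.90% of all genes were higher and 17.2% lower. Epas1 was at 2174, 3160 and 710, averaged over 3 probes of which not all were detected. Its MGE-GFP+ differences, which include bounds, were -3.95 against ES-GFP- and -3.39 against ES-GFP+ cells.

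Mef2c was high in both GFP+ populations. It encodes a MADS-box transcription factor that neurons, muscle, endothelium and microglia use, and that immature MGE-derived interneurons make early. Its probe A_55_P2155620 gave 536 ± 53.8 in ES-GFP+, 112 ± 12.0 in ES-GFP- and 530 ± 53.0 in MGE-GFP+ cells. The GFP+ arrays lay above their control ranges and the GFP- array below its own. After scaling, ES-GFP+ cells were 5.40-fold and MGE-GFP+ cells 6.92-fold above ES-GFP- cells, a log2 difference of 2.43 and 2.79, and larger than that of 95.2% and 99.4% of genes. The GFP+ populations differed from each other by 0.36, within 2 SD of repeat spots, though by 1.11 when the arrays were scaled to the 50th percentile. With the GFP- value raised to the control range the differences against it were 1.54 and 1.90, and both stayed past 2-fold under every setting tried.

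RefSeq lists 3 promoter windows for Mef2c, and the array does not tell which start was used. The window shown, chr13:83523406-83523655 on the plus strand (GRCm38.p6), is the one of the 11 windows of the members that held TAATTA.
Mef2c: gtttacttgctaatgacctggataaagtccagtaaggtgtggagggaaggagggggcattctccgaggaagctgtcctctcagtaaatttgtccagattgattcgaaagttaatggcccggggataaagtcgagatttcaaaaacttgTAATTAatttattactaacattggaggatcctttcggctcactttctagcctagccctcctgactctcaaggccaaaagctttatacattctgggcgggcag
The match began at position -102. The 3 windows held 35.7%, 47.0% and 48.3% G and C, each below the median of all windows.

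Markers of other cells that use Mef2c were counted beside it, to be read against the 24.0% of all genes that were at least 2-fold higher and the 6.40% lower in ES-GFP+ cells. Of 8 microglial genes (6 with a value), 2 (Aif1 and C1qa) were at least 2-fold higher and 0 lower in ES-GFP+ than in ES-GFP- cells, with a median of 0.75, and 4 were higher and 0 lower in MGE-GFP+ than in ES-GFP- cells, where 9.90% of all genes were higher. Their summed intensity was from 58411 to 66237 on the 3 arrays, of which the single gene Itgam took from 56206 to 63867, and 2 or 3 of the 8 were above the control range. Cx3cr1 and C1qc, defining genes of microglia, were not well above background on either ES array and were at 75.3 and 42.6 in MGE-GFP+ cells, under its control range. Of 7 endothelial genes (6 with a value) 2 (Cldn5 and Emcn) were higher and 0 lower in ES-GFP+ cells, their sums ran from 731 to 1102, and Cdh5 was not well above background on any array. Of 7 muscle genes (6 with a value) 3 (Des, Ttn and Tnnt2) were higher and 1 (Actc1) lower, with sums from 1349 to 1776 and Myf5 not well above background on any array. Other genes of these lists had a probe above the control range on all 3 arrays. Csf1r of the microglial list was at 1625, 1911 and 1661 in ES-GFP+, ES-GFP- and MGE-GFP+ cells, and Myod1 of the muscle list at 1023, 947 and 1095. Kdr of the endothelial list was at 435, 569 and 543, averaged over 2 probes of which not all were detected. The part of these cells in the Mef2c values was not tested.

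The other Mef2 genes did not show the Mef2c pattern at its size. Mef2a was at a log2 difference of 0.15 between the ES populations, Mef2d at 0.84 and Mef2b at 0.03. Against ES-GFP- cells, MGE-GFP+ cells were at 0.72 for Mef2a and 0.24 for Mef2d, while the Mef2b probe was not well above background there.

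Cux2 followed the order of Mef2c with smaller steps. It encodes a homeodomain factor known from upper-layer cortical neurons and their progenitors, and from some interneurons. Probe A_55_P1955861 gave 242 ± 24.7 in ES-GFP+, 111 ± 11.8 in ES-GFP- and 282 ± 28.4 in MGE-GFP+ cells, and the last was the one value above the control range. ES-GFP+ cells were 2.47-fold and MGE-GFP+ cells 3.74-fold above ES-GFP- cells, by 1.31 and 1.90 on the log2 scale. The first lost its 2-fold call under some settings, down to 0.73 in the deposited log2 values. The second fell to 0.99 with the floor at the control range and kept its call under the others. MGE-GFP+ cells were 1.51-fold above ES-GFP+ cells, more than 2 SD of repeat spots.

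Its paralogue Cux1 was at 1252, 1585 and 1646 on the same arrays, with a log2 difference of -0.20 between the ES populations and 0.67 for MGE-GFP+ minus ES-GFP- cells. Genes of pallial progenitors and upper-layer neurons, the other place where Cux2 is used, went mainly the other way: of 8, 2 were at least 2-fold higher in ES-GFP+ than in ES-GFP- cells and 3 lower (Neurod1, Neurod2 and Neurog2), with a median of -0.76, and of the 7 with a value 1 was higher and 4 lower in MGE-GFP+ cells. Their summed intensity was 1963 in ES-GFP+, 3139 in ES-GFP- and 1699 in MGE-GFP+ cells, and 1, 6 and 2 of them were above the control range. Neurog2, a defining factor of pallial progenitors, was at 73.4, 1043 and 20.7.

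**Figure D2:**
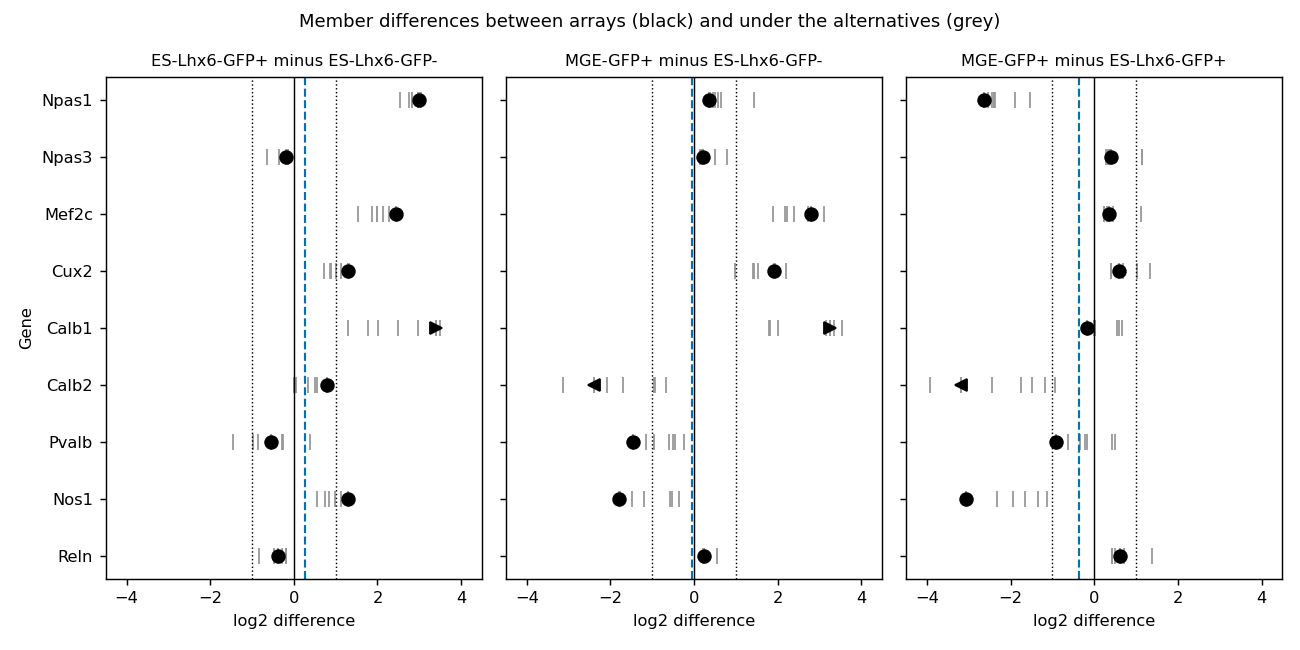
Log2 difference of each of the 9 genes in the 3 comparisons (black, triangles for bounds), with the values under the alternative settings as grey ticks, 2-fold as dotted lines and the median of all genes (0.27, -0.06 and -0.36) as a dashed line. Npas1, Mef2c and Calb1 keep all ticks past 2-fold in the first panel, Mef2c and Calb1 do so in the second, and Npas1 and Nos1 in the third.

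The calcium-binding protein genes gave no common pattern. Calbindin, parvalbumin and calretinin are EF-hand proteins that bind calcium in the cytoplasm and label largely separate interneuron classes in the adult. Of the 3, Calb1 was higher in both GFP+ populations than in ES-GFP- cells. Probe A_55_P2181602 gave 167 ± 17.5 in ES-GFP+, 16.6 ± 4.23 in ES-GFP- and 115 ± 11.8 in MGE-GFP+ cells. The GFP- value was not well above background, and the lowest detected signal of that array was 17.8, so ES-GFP+ cells were at least 10.6-fold and MGE-GFP+ cells at least 9.46-fold higher. The GFP+ values themselves lay under their control ranges, so Calb1 had no difference to give with the floor there. In log2 terms the bounds were 3.41 and 3.24, and they fell to 1.28 in the deposited values, which have no background subtraction, for the first and to 1.79 after normexp background correction for the second. The GFP+ populations differed by -0.17, within 2 SD of repeat spots, and the sign of that difference turned under 5 of 8 alternatives.

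Calb2 was called well above background in both ES populations and not in the embryonic cells, which does not show that it was present. The same call was made for 86 of the 106 control probes on the ES-GFP+ array and 34 on the ES-GFP- array. Probe A_52_P556433 gave 143 ± 15.1 in ES-GFP+ and 93.0 ± 10.0 in ES-GFP- cells, both well above background, and 7.19 ± 2.64 in MGE-GFP+ cells, which was not. MGE-GFP+ cells were thus at least 9.11-fold below ES-GFP+ and at least 5.26-fold below ES-GFP- cells. The 2-fold call against ES-GFP- cells was lost after normexp background correction (log2 difference -0.67), in the deposited values (-0.95) and with the background not subtracted (-0.94). All 3 values were under the control range. In the deposited log2 values the same probe read 7.24, 7.24 and 6.30, so the difference between the GFP+ populations shrank to -0.94 and the ES populations could not be separated. From the scanner values ES-GFP+ cells were 1.73-fold above ES-GFP- cells.

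Pvalb was not shown to be present by either probe. Probe A_55_P2059040 gave 7.75 ± 4.89, 3.53 ± 3.55 and 4.77 ± 2.45 in ES-GFP+, ES-GFP- and MGE-GFP+ cells and was not well above background on any array. Probe A_55_P2114437 was well above background, at 95.5 ± 11.1, 157 ± 16.4 and 38.8 ± 4.93, and under the control range on all 3 arrays. Its highest value was in ES-GFP- cells, and MGE-GFP+ cells were 2.76-fold below them. This order is not firm, since the probe ranked in the 30.9th percentile of mouse probes in ES-GFP+ and the 36.8th in MGE-GFP+ cells, the reverse of the scaled values, and the 2-fold call between MGE-GFP+ and ES-GFP- cells was kept under 3 of 8 alternatives.

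Over all 12 paralogues and relatives of the members, 3 were at least 2-fold higher and 1 lower in ES-GFP+ cells, with a median of 0.17. Those with EF hands, as the calcium-binding members have, were dim or split. Ocm, another parvalbumin family member, was at 91.6, 28.8 and 20.7 and under the control range on all arrays. S100g was at 731 and 992 in ES-GFP+ and ES-GFP- cells and not well above background in MGE-GFP+ cells, which was at least 43.6-fold below ES-GFP+ cells by its probes, and Necab2 was highest in ES-GFP- cells at 935, with 292 and 175 on the other arrays. Necab1 was under the control range on all 3.

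Nos1 had the order ES-GFP+, ES-GFP-, MGE-GFP+. Its enzyme makes nitric oxide, a gas that activates soluble guanylate cyclase in neighboring cells, and it marks a class of MGE-derived interneurons with long axons. Probe A_55_P2133795 gave 198 ± 20.6, 91.8 ± 10.4 and 18.2 ± 3.53 in that order, all well above background and all under the control range. ES-GFP+ cells were 2.44-fold above ES-GFP- cells, and MGE-GFP+ cells were 3.44-fold below ES-GFP- and 8.40-fold below ES-GFP+ cells. Every gap was wider than 2 SD of repeat spots. The last difference (-3.07 on the log2 scale) ran to -1.14 in the deposited values and stayed past 2-fold wherever it could be computed, while the other 2 lost the 2-fold call under some settings, at 0.56 and -0.37 at the least. With the floor at the control range no Nos1 difference could be computed. The control probes had the same order of medians, at 69.9, 11.5 and 7.73. The part of this array background in the Nos1 differences was not tested.

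Genes of the nitric oxide pathway went the way of Nos1 in part. Of 9, 6 were at least 2-fold higher and 0 lower in ES-GFP+ than in ES-GFP- cells, with a median of 1.16 against 0.27 for all genes, of which 24.0% were higher. Among these 6, Gucy1a1 and Dynll1 were above the control range. Gucy1b1, Prkg1, Prkg2 and Dlg4 were under it on every array, and the Dlg4 difference is a bound. Between the GFP+ populations 5 were lower and 1 higher in MGE-GFP+ cells, where 32.2% of all genes were lower. Those 5 (Dlg4, Gucy1b1, Prkg1, Prkg2 and Pde5a) were under the control range on every array. Unlike Nos1, which was lower in MGE-GFP+ than in ES-GFP- cells, 2 of the 8 with a value in that comparison were higher and 1 lower, with a median of -0.16. The guanylate cyclase subunit Gucy1a1, whose protein is the receptor for nitric oxide together with the Gucy1b1 product, was at 814 in ES-GFP+, 291 in ES-GFP- and 978 in MGE-GFP+ cells. Gucy1b1 was at 143, 34.7 and 16.5, under the control range, and so split from its partner in the embryonic cells. Prkg2, a cGMP-dependent kinase, was at 231, 117 and 19.4. Dynll1, a light chain that binds the neuronal synthase, was higher in both GFP+ populations by 1.17 and 2.93 on the log2 scale. The adaptor gene Nos1ap differed by 0.27 between the ES populations, and Dlg4, the scaffold that holds the synthase at synapses, was well above background in ES-GFP+ cells alone, at 52.7. The other synthase genes gave 0.22 for Nos2 and 0.16 for Nos3, neither past 2 SD of repeat spots.

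Reln, like Npas3, was above the control range everywhere and varied little. Reelin is secreted by Cajal-Retzius cells at the surface of the cortex and by some interneurons, and guides migrating neurons. Probe A_66_P108810 gave 475 ± 47.8 in ES-GFP+, 699 ± 70.0 in ES-GFP- and 565 ± 56.6 in MGE-GFP+ cells. On the scaled log2 values the order was MGE-GFP+, ES-GFP-, ES-GFP+, with gaps of 0.24 and 0.38 between neighbors that were both within 2 SD of repeat spots. The ends of that order differed by 0.62, or 1.54-fold, which was wider than 2 SD and reached 1.37 with the arrays scaled to the 50th percentile.

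The Reln promoter, chr5:22344706-22344955 on the minus strand (GRCm38.p6), is shown as the member window richest in G and C, at 80.7%, and with 47 CpG pairs.
Reln: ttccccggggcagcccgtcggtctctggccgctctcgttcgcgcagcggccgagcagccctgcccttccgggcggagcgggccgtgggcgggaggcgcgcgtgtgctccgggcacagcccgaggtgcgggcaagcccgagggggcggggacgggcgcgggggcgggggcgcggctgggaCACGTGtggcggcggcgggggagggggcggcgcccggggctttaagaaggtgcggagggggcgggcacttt
Its capitals are a CACGTG palindrome, which counts as 2 matches to ACGTG, 1 on each strand, and as an E-box. No value here bears on whether any factor is bound there.

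Reln and Calb2 are also made by Cajal-Retzius cells, so 7 other genes of those cells were counted. Of these, 0 were at least 2-fold higher and 4 lower in ES-GFP+ than in ES-GFP- cells, with a median of -1.20, and 1 was higher and 5 lower in MGE-GFP+ cells, with a median of -2.93. Their summed intensity was 20761, 25863 and 15951 in ES-GFP+, ES-GFP- and MGE-GFP+ cells, most of it Cacna2d2 at 15974, 15408 and 15052, and 3, 5 and 4 of them were above the control range. Trp73, their defining gene, was at 154, 110 and 112, under the control range on both ES arrays and averaged over 3 probes of which not all were detected. Ebf3 was at 360.2, 1408 and 41.0. Their part in the Reln and Calb2 values was not tested.

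The rest of the reelin pathway was present on all arrays. All 8 genes were above the control range on all 3 arrays, and between the ES populations 0 were at least 2-fold higher and 0 lower, with a median of 0.27, the same as for all genes. The receptor genes Lrp8 and Vldlr differed by 0.65 and -0.30, the adaptor Dab1 by -0.16, the kinase Fyn by 0.54 and Crk by 0.33. MGE-GFP+ cells were at least 2-fold above ES-GFP- cells for 3 of the 8 and lower for 0, and their log2 difference was 1.11 for Lrp8, -0.85 for Vldlr, 0.93 for Dab1 and 1.50 for Fyn.

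Ranks within each array give a view of the 9 genes that no scaling between arrays can change. Both Npas1 probes ranked in the 85.2nd and 86.6th percentile of mouse probes in ES-GFP+ and the 55.4th and 57.5th in ES-GFP- cells. Mef2c rose from the 42.8th in ES-GFP- to the 69.7th in ES-GFP+ and the 74.0th in MGE-GFP+ cells. Cux2 took the 53.5th, 42.6th and 65.5th, in the order ES-GFP+, ES-GFP-, MGE-GFP+, and Nos1 the 48.7th, 39.7th and 26.2nd. Reln and the Npas3 probes stayed between the 67.5th and the 87.9th on every array. Calb1 was in the 44.6th, 17.2nd and 52.7th, so by rank the embryonic cells came first and not the ES-GFP+ cells, as they did in the deposited values, while the scaled values gave the reverse with a gap inside 2 SD.

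**Figure D3:**
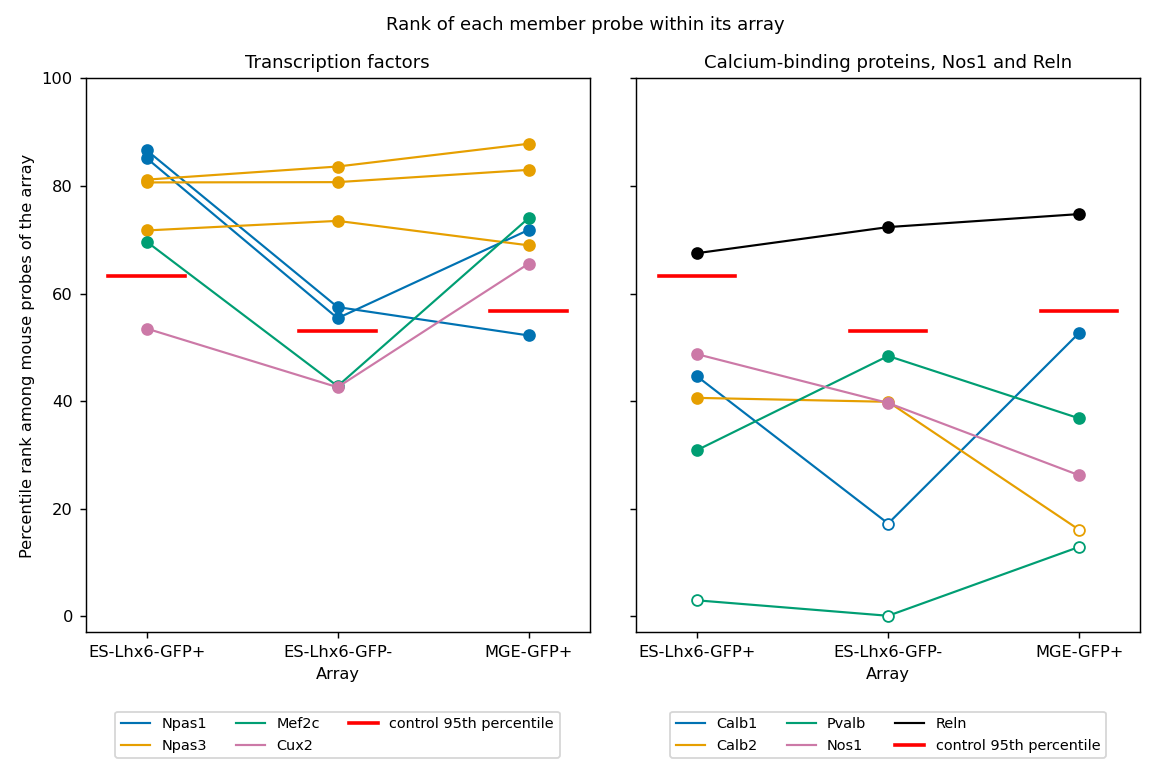
Percentile rank of each probe among the 55681 mouse probes of its array, for the transcription factor genes and for the other 5 genes, with open points where the probe was not well above background and red bars at the rank of the control range (63.2, 53.1 and 56.7). Mef2c, Cux2 and 1 Npas1 probe lie above the bar on some arrays and below it on others, Reln and Npas3 stay above them, and Calb1, Calb2, Nos1 and Pvalb stay below.

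Other genes of the MGE lineage set a scale for the 9 genes. Of 20 such genes, 18 were at least 2-fold higher and 1 (Cxcr4) lower in ES-GFP+ than in ES-GFP- cells, with a median of 1.81, and the same counts were found in MGE-GFP+ cells, with a median of 2.20. Lhx8, a relative of Lhx6, was at 3471, 213 and 11295 in ES-GFP+, ES-GFP- and MGE-GFP+ cells. The neuropeptide genes Sst and Npy, which mark MGE-derived subtypes, were higher in ES-GFP+ cells by 2.29 and 2.54. Like Npas1 and Nos1, they were lower in MGE-GFP+ than in ES-GFP+ cells, by log2 differences of -0.74 and -1.84, though Sst did not reach 2-fold. In that comparison 32.2% of all genes were at least 2-fold lower. The median of all genes was -0.36 there, and 0.40 with the arrays scaled to the 50th percentile. Sst and Npy were not recomputed under that setting.

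Genes of CGE-derived and other subtypes were split between the ES populations, with 3 of 12 (Vip, Tac1 and Crh) at least 2-fold higher in ES-GFP+ cells, 2 (Htr3a and Ndnf) lower and a median of -0.02. By the same rule 24.0% of all genes were higher and 6.40% lower. The Vip and Crh differences are bounds, since neither gene was well above background in ES-GFP- cells. In ES-GFP+ cells they were at 99.6 and 97.0, both under the control range. In MGE-GFP+ cells 3 of the 11 with a value were higher and 7 lower than in ES-GFP- cells, with a median of -1.66, and Calb2 went the same way as these 7. Of all genes, 9.90% were higher and 17.2% lower there. Prox1, a factor of CGE-derived cells, was at 1783, 3777 and 817, the serotonin receptor gene Htr3a at 83.4, 225 and 39.5, and Ndnf, a marker of layer 1 neurogliaform cells, at 253, 692 and 32.2. Tac1, which encodes substance P, differed from them, at 841, 149 and 3276.

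Genes of fast-spiking cells, the class that parvalbumin marks in the adult, were counted beside Pvalb. Of the 14 with a value, 6 were at least 2-fold higher in ES-GFP+ than in ES-GFP- cells and 1 lower, with a median of 0.86. In MGE-GFP+ cells 5 of 15 were higher and 2 lower than in ES-GFP- cells, with a median of 0.01. The potassium channel gene Kcnc2 was at 229 in ES-GFP+, 41.8 in ES-GFP- and 448 in MGE-GFP+ cells, and was above the control range in the last alone. Acan, which encodes the main proteoglycan of perineuronal nets, was at 270, 108 and 61.2, under the control range on all arrays. Etv1, a transcription factor gene, was lower in ES-GFP+ cells and much higher in MGE-GFP+ cells, at 148, 571 and 2283. The study lists Etv1 as a globus pallidus marker, so it is not particular to fast-spiking cells. Some others, named after their values were seen, were above the control range on all 3 arrays, such as the sodium channel gene Scn1a, the chloride transporter gene Slc12a5 and Cplx1, with log2 differences of 1.18, 1.04 and 0.81 between the ES populations. Hapln1 was not well above background on any array.

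**Figure D4:**
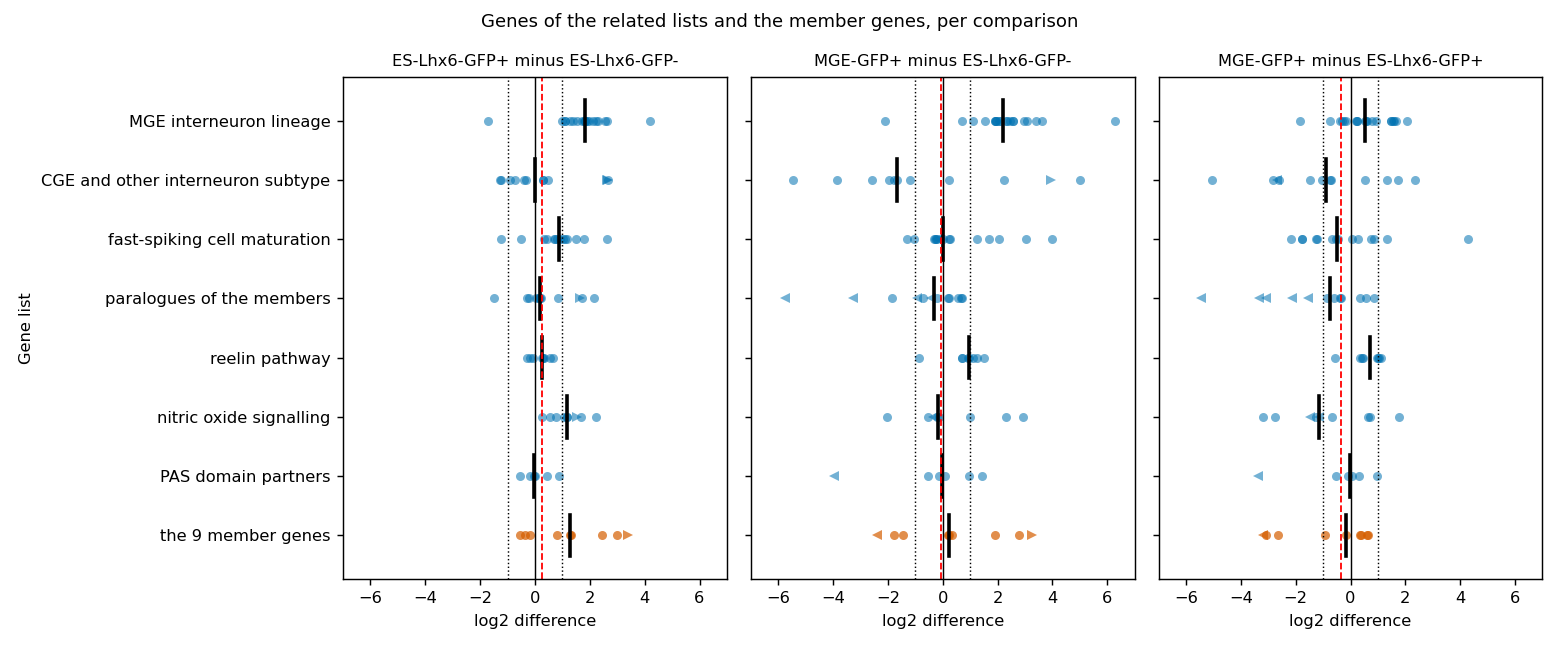
Log2 difference of each gene of 7 related lists (blue) and of the 9 genes (orange) in the 3 comparisons, with triangles for bounds, a black bar at each list's median, dotted lines at 2-fold and a dashed line at the median of all genes. The MGE lineage list sits to the right in the first 2 panels (medians 1.81 and 2.20), while the medians of the 9 genes were 1.29, 0.24 and -0.17.

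The ES-GFP- cells also held more RNA of dividing progenitors. Of 10 progenitor genes 9 were at least 2-fold lower and 0 higher in ES-GFP+ cells, with a median of -2.41, and the same counts held in MGE-GFP+ cells. Their summed intensity was 9358, 54037 and 9095 in ES-GFP+, ES-GFP- and MGE-GFP+ cells. Of 10 neuronal genes, 2 were at least 2-fold higher and 0 lower in ES-GFP+ cells, with a median of 0.61 and sums from 259703 to 284042. On the MGE-GFP+ array 4 of the 5 erythroid genes with a value were at least 2-fold above ES-GFP- cells, with sums of 936, 694 and 13188. The part of these cells in the values of the 9 genes was not tested.

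For the 7 genes that were well above background on all 3 arrays with a probe, the genes with the nearest pattern were sought among 11584 or 11585 others, by the distance between the 3 log2 levels after each gene was centred on its mean. Npas1 and Mef2c had few near neighbors: 1 gene (Misp) lay within 0.20, which is 1 SD of a difference, of Npas1, followed by Olah and Otud7b, and 2 (Pcdh19 and B4galt2) of Mef2c, followed by Khdrbs2. Nos1 also had 2 (Unc5a and Gng4), followed by Klf1. Cux2 had 48, the nearest being Nap1l2, Rtl6 and Elmo1, and Pvalb 106, led by Cpne7, Pml and Mettl1. Reln had 595, led by Txndc17, Ctdnep1 and Pomgnt1, and Npas3 955, led by Ppp2r2d, Pisd-ps2 and Mcoln1, as many genes varied little. With 3 arrays these distances are a description of 3 levels. For Npas1 those levels are means of 2 probes that disagreed in MGE-GFP+ cells, at -0.37 and -2.37 on the scaled log2 values. Its neighbors were sought for that mean and not for either probe.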

How the data were processed

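Per the file headers, the authors extracted 3 single-color Agilent arrays (1 slide) with Feature Extraction 10.7.3.1. The deposited intensity of each spot was used with its background subtracted by that software, and so was the deposited table of log2 values. That table gives no scale. It was found to equal the log2 of median spot intensities, quantile normalized over the mouse spots without background subtraction and taken as the median of repeat spots (largest departure 5.0e-09), so dim genes differ less in it. The study's methods name other amplification and labeling kits than the labels do.

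Log2 intensity was taken minus the array's 75th percentile over mouse probes. Flagged spots were left out (98 to 137 mouse spots per array, 0 were saturated) and repeat spots were averaged. Well above background means that the software's call held for a share of at least 0.5 of the spots of a probe. A dimmer probe was raised to the lowest detected value of its array, which gives a bound. A gene's difference is the mean over its probes. RefSeq transcripts (GRCm38.p6) named 26582 probes. Of the members, 7 had promoter windows in the RefSeq table, and Calb1 and Calb2 had none there. Named from the gene lists were up to 4 genes with the largest difference between the ES populations among those well above background on all arrays, and direct paralogues, receptors and partners of the members. Not every gene this names is reported here. Genes named behind small counts and cell type markers were chosen after their values were seen. The members and lists were chosen with earlier results of these data known.

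The calculation was tested on simulated data. Alternatives were a 50th percentile scaling, quantile normalization, normexp correction (offset 50, limma 3.58.1, on median signals since mean signals were not used here), intensities without background subtraction, the deposited log2 values, no dim-probe filter, a floor at the control probes, the brightest probe alone, flagged spots kept, and a 4-fold threshold. R 4.3.3, Python 3.11.15, numpy 2.4.6 and pandas 2.3.3 were used. The number of arrays limits the precision.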

Additional observations from a re-analysis of the deposited data

How the results depend on the processing

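No paired analysis was possible because each population had 1 array. Of 229 member differences recomputed under the 9 alternatives, 125 moved by less than 1 SD of repeat spots and 104 by more, and 0 that had passed 2-fold changed sign. The number of genes at least 2-fold higher in ES-GFP+ than in ES-GFP- cells, 5 of 9, was 3 with the 50th percentile scaling, with quantile normalization, in the deposited log2 values and at 4-fold, and 2 of the 4 genes with a value with the floor at the control probes. The number lower was 1 (Pvalb) with quantile normalization. For MGE-GFP+ against ES-GFP- cells, the number higher was 1 of 5 with the floor at the control probes, and the number lower, 3 of 9, was 0 after normexp correction, without background subtraction, in the deposited values and with the control floor, and 1 at 4-fold. For MGE-GFP+ against ES-GFP+ cells, the number higher, 0 of 9, was 4 with the 50th percentile scaling (Npas3, Mef2c, Cux2 and Reln), 1 with quantile normalization (Cux2) and 1 with the brightest probe (Npas3), and the number lower was 1 of 4 with the control floor (Npas1). A floor at the control probes left 14 of the 27 differences without a value because both sides lay under it, and the other causes were not tested. Subtracting the median of all genes, an alternative chosen after seeing the data, changed none of the 6 counts.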
